A study of Mus musculus with 52 samples.

Results

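The effect of a Western high-fat diet on frontal cortex was measured in male APP/E3 mice. The comparison was defined by the labels alone, as the libraries with genotype APP/E3 and male sex, and holds 12 of the 52 libraries of the series, 6 from mice fed the high-fat diet (HFD) and 6 from mice fed a normal chow diet (ND). All 12 mice carried the APP/PS1ΔE9 transgenes, a mutant human amyloid precursor protein and a mutant presenilin that drive amyloid deposition, and were homozygous for human APOE3 placed by targeted replacement at the mouse Apoe locus. In this line both transgenes are driven by a mouse prion protein promoter. In the HFD, fat (milk fat with corn oil) supplied 40% of calories, protein supplied 16.8% and carbohydrate supplied 42.6%. Feeding lasted 3 months and started when the mice were 3.5 months old on average. Behaviour was tested when they averaged 14.7 months. The labels leave the relation of these ages unexplained and give no age for single animals. Mice were perfused, and RNA with an integrity number above 8 went into 1 library per animal.

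APOE carries lipids between brain cells, mainly out of astrocytes, and its human E3 form is the common one against which the risk form E4 is judged. Diets rich in saturated fat raise circulating lipids and impair insulin action in mice, and their effect on brain tissue is usually looked for in microglia, astrocytes, lipid metabolism, insulin signalling and mitochondria. The comparison of HFD with ND in APP/E3 males asks how the cortex of an amyloid model responds to the diet when it carries the common allele.

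No gene passed the test between HFD and ND. With edgeR, 0 of 15195 genes (0.0%) had an adjusted p under 0.05, and the median absolute log2 difference over all genes was 0.12. The smallest adjusted p belonged to Dcun1d3 (0.0748), which was higher on HFD. Differences were above 0 for 47.2% of genes and below 0 for 52.8%. An unadjusted p under 0.05 was found for 2064 genes (13.6%), of which 943 were higher on HFD (6.21%) and 1121 lower (7.38%). In APP/E3 females the same count was 713 (4.69%) and in APP/E4 males 555 (3.65%). The male count depended most on 1 library. Without ND male 2 it was 866, of which 779 were among the 2064. With any other single library left out it lay between 1410 (without HFD male 4) and 2449 (without ND male 5). DESeq2 called 6 genes, edgeR without a filter on low counts called 4, and limma-voom called 0. With single libraries left out, edgeR called 9 genes without ND male 1, 7 without ND male 4, 3 without ND male 2, 2 without HFD male 4, 1 without ND male 6 and 0 without any of the other 7. All of these calls were of Dcun1d3 or of genes that stood high in ND male 3, which are described further on.

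The 12 libraries held between 6.002 and 39.4 M counts, and 11 of them at most 13.1 M. The deepest was ND male 5. Markers of cortical neurons, astrocytes, myelin and microglia were present in every library. The glutamate transporter gene Slc17a7 lay between 1298 and 1621 CPM on HFD and between 1390 and 2008 CPM on ND (CPM, counts scaled by TMM to a common library size). The table counts mouse genes, so it does not separate human APOE from mouse Apoe and does not check the genotype. Titles with and without a sex letter were split 2 and 4 in both diet groups, and the 4 libraries high in the multi-copy sequence LOC100503946 were HFD males 2 and 5 and ND males 1 and 6, so neither split was confounded with diet. Replicate spread here is the spread between animals of one group. In a tissue extract, fewer cells of a type and less RNA per cell cannot be told apart.

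In some genes the 6 HFD values and the 6 ND values did not overlap. There were 142 such genes with all HFD libraries above all ND libraries (0.935%) and 125 with all HFD libraries below (0.823%). Their median log2 difference was 0.21 for the first set and -0.28 for the second. Dcun1d3, on chromosome 7, encodes a DCN1-like protein that helps attach Nedd8 to cullin ubiquitin ligases. Its level was 27.9 CPM at the lowest, 28.9 at the median and 31.8 at the highest on HFD, against 21.0, 22.7 and 24.9 CPM on ND. All 6 HFD libraries were above the highest ND library, and ND male 2 lay in the middle of its group. The log2 difference was 0.36 ± 0.07 (SE from the fit over 52 libraries, n = 6 each). The adjusted p of 0.0748 ranged from 0.00794 to 0.561 over the alternative fits. In APP/E3 females the difference was 0.03 and in APP/E4 males -0.00.

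**Figure D1:**
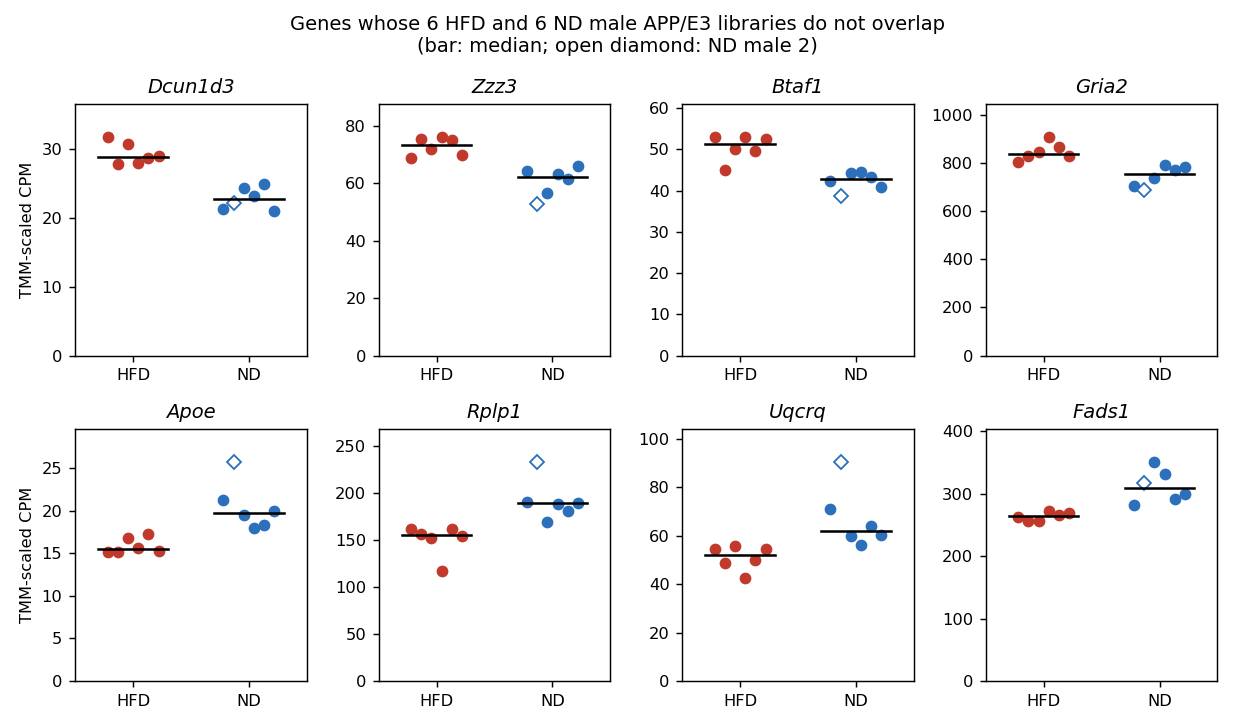
Level of 8 genes (TMM-scaled CPM, vertical axes from 0) in the 6 HFD and 6 ND libraries of APP/E3 males, 1 point per animal, with bars at group medians and ND male 2 as an open diamond. Dcun1d3, Zzz3, Btaf1 and Gria2 lie higher on HFD and Apoe, Rplp1, Uqcrq and Fads1 lower, each without overlap, and none passed the test.

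Genes of chromatin and transcription were mostly higher on HFD. Of the 54 chromatin and transcription regulators tested, 48 were higher and 6 lower, with a median log2 difference of 0.17 against -0.01 over all genes. An unadjusted p under 0.05 was found for 26, all higher, against 6.21% of all genes. The count was 8 without ND male 2 and 13 without HFD male 4. Zzz3 encodes a subunit of the ATAC histone acetyltransferase complex. It had 68.9, 73.4 and 76.3 CPM on HFD as the lowest, median and highest value, against 52.7, 62.3 and 66.2 CPM on ND, a log2 difference of 0.26 ± 0.06 (edgeR adjusted p = 0.164). The groups did not overlap. Btaf1 encodes an ATPase that removes the TATA-binding protein from DNA. It had 44.96, 51.3 and 53.2 CPM on HFD, against 38.7, 42.8 and 44.5 CPM on ND (0.26 ± 0.09, adjusted p = 0.285), again without overlap. The chromatin remodelling subunit gene Arid1a (0.21 ± 0.08) and the nuclear receptor coactivator gene Ncoa3 (0.23 ± 0.09) were also higher in every HFD library. Their lowest ND value came from ND male 2, at 107 and 35.6 CPM. Tet1, which oxidises methylated cytosine, had 13.2, 17.4 and 20.1 CPM on HFD and 9.67, 11.9 and 14.2 CPM on ND (0.49 ± 0.15, adjusted p = 0.278). Its groups overlapped by the lowest HFD libraries. In APP/E3 females 48 and in APP/E4 males 44 of the same 54 genes were higher on HFD, with medians of 0.11 and 0.06, where 48.4% and 49.2% of all genes were higher.

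Other genes with small p on the higher side had varied roles. Nup98 and Nupl1 encode nucleoporins of the nuclear pore. Nup98 had 28.1, 33.3 and 37.9 CPM on HFD and 16.4, 26.0 and 29.3 CPM on ND (0.42 ± 0.10, adjusted p = 0.164), and its groups overlapped through HFD male 2. Nupl1 differed by 0.34 ± 0.09 and overlapped by a narrow margin. The MAP kinase kinase kinase gene Map3k2 (0.36 ± 0.09), the RNA-binding protein gene Rbm27 (0.28 ± 0.07) and the ubiquitin ligase gene Ubr2 (0.19 ± 0.05) were above ND in every HFD library. The histone chaperone gene Spty2d1, the zinc finger gene Zfp397 and Mfap3 differed by between 0.30 and 0.33. For Nup98, Nupl1, Map3k2, Rbm27, Ubr2, Spty2d1, Zfp397 and Mfap3 the lowest of the 12 values was that of ND male 2.

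Cytosolic ribosomal protein genes were mostly lower on HFD. Of 75 tested, 72 were lower and 3 higher, with a median log2 difference of -0.24. An unadjusted p under 0.05 was found for 24, all lower, against 7.38% of all genes. The count was 11 without ND male 2 and also 11 without HFD male 4. In 8 of the 75 genes all HFD libraries were below all ND libraries, against 0.823% of all genes. Rplp1 encodes a protein of the ribosomal stalk. It had 117, 155 and 162 CPM on HFD as the lowest, median and highest value, against 169, 189 and 233 CPM on ND (-0.35 ± 0.10, adjusted p = 0.266). The groups did not overlap, with HFD male 4 lowest and ND male 2 highest. Rps20 (-0.35 ± 0.10), Rps18 (-0.37 ± 0.13) and Rpl7a (-0.29 ± 0.09) were likewise lower without overlap. Rps15a was the member with the smallest p on the higher side (0.09 ± 0.07, adjusted p = 0.603). Ribosomal protein genes have processed pseudogenes that can share their reads, so single values are uncertain. In APP/E3 females 56 of the 75 were higher on HFD (median 0.11), and the test of the difference between males and females gave an unadjusted p under 0.05 for 30 of the 75, against 819 of all genes (5.39%), with none passing after adjustment. In APP/E4 males 50 were lower (median -0.04). Over all genes 51.6% were lower in females and 50.8% in APP/E4 males.

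Oxidative phosphorylation genes of the nuclear genome, which encode subunits of the respiratory chain and of ATP synthase, were also lower. Of 69 tested, 63 were lower and 6 higher, with a median of -0.18. An unadjusted p under 0.05 was found for 27, all lower, against 7.38% of all genes. The count was 6 without ND male 2 and 10 without HFD male 4. Uqcrq, a complex III subunit gene, had 42.7, 52.3 and 55.7 CPM on HFD and 56.2, 62.1 and 90.6 CPM on ND (-0.39 ± 0.11, adjusted p = 0.266). The groups did not overlap, and ND male 2 stood far above the rest. Cox6a1, a cytochrome c oxidase subunit gene, had 122, 155 and 159.7 CPM on HFD and 169, 178 and 229 CPM on ND (-0.32 ± 0.09, adjusted p = 0.266), with HFD male 4 lowest. Ndufs1, a core subunit of complex I, was the member with the smallest p on the higher side (0.11 ± 0.07, adjusted p = 0.461). In APP/E4 males 66 of these 69 genes were lower as well (median -0.11), and in APP/E3 females 40 (median -0.01).

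**Figure D2:**
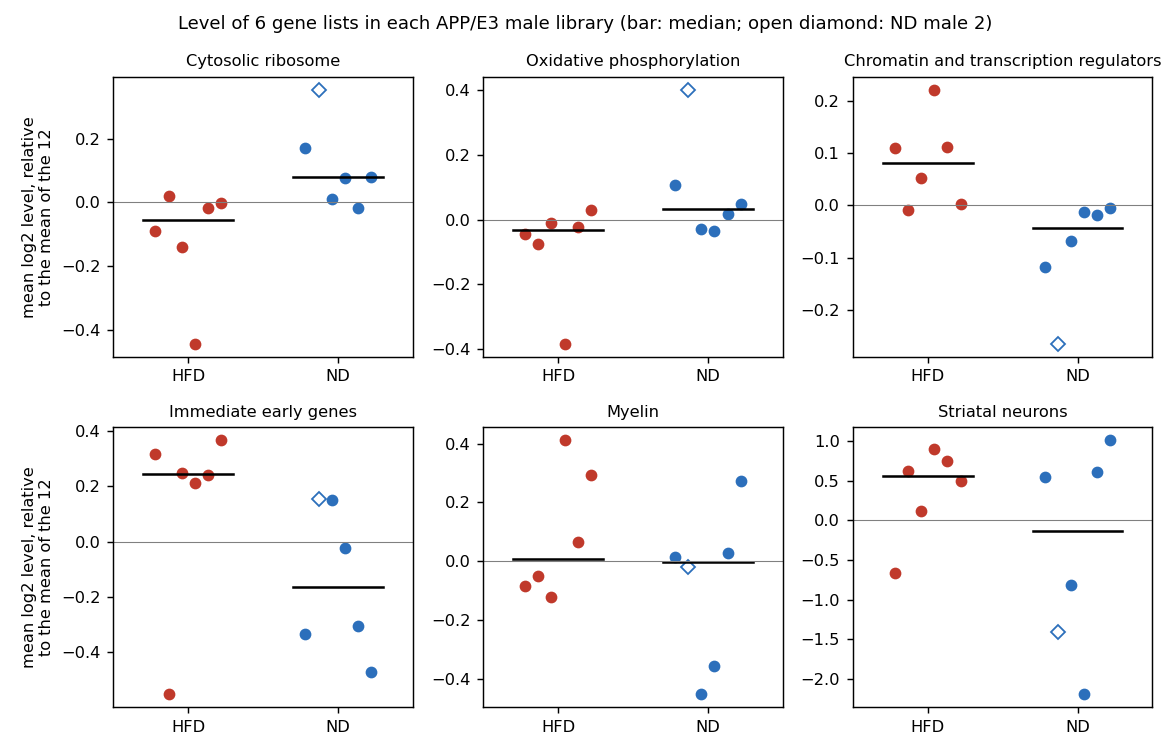
Mean log2 level of 6 gene lists in each APP/E3 male library relative to the mean of the 12 libraries (vertical axis), HFD beside ND, with bars at group medians and ND male 2 as an open diamond. ND male 2 is the highest ND library for ribosome and oxidative phosphorylation genes and the lowest for chromatin regulators, HFD male 4 is the lowest HFD library for the first pair of lists, and HFD male 2 stands apart for immediate early genes.

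The direction of a gene's difference went with the length of its transcript. When genes were divided into 5 equal groups by the length of their longest annotated transcript, the median log2 difference was -0.14 in the shortest group, -0.06, -0.01 and 0.04 in the next 3, and 0.13 in the longest. The shortest and longest groups had medians of -0.03 and 0.04 in APP/E3 females and of -0.05 and 0.04 in APP/E4 males. Of the 142 non-overlapping genes higher on HFD, 98 belonged to the longest group and 0 to the shortest. Of the 125 lower on HFD, 63 belonged to the shortest group and 3 to the longest. For each library the mean log2 deviation of the shortest group minus that of the longest was -0.35 at the lowest, -0.10 at the median and -0.05 at the highest on HFD, against -0.0012, 0.04 and 0.59 on ND. All 6 HFD libraries were below all 6 ND libraries, with HFD male 4 and ND male 2 far from the rest of their groups (exact permutation test, two-sided, p = 0.00216, the smallest value that the splits of 12 libraries can give, and 0.00433 without ND male 2). This measure was chosen after the data were seen. GC content of the transcripts, measured the same way as the lowest minus the highest group, also separated the groups (0.0406 to 0.135 on HFD and -0.255 to -0.0203 on ND).

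**Figure D3:**
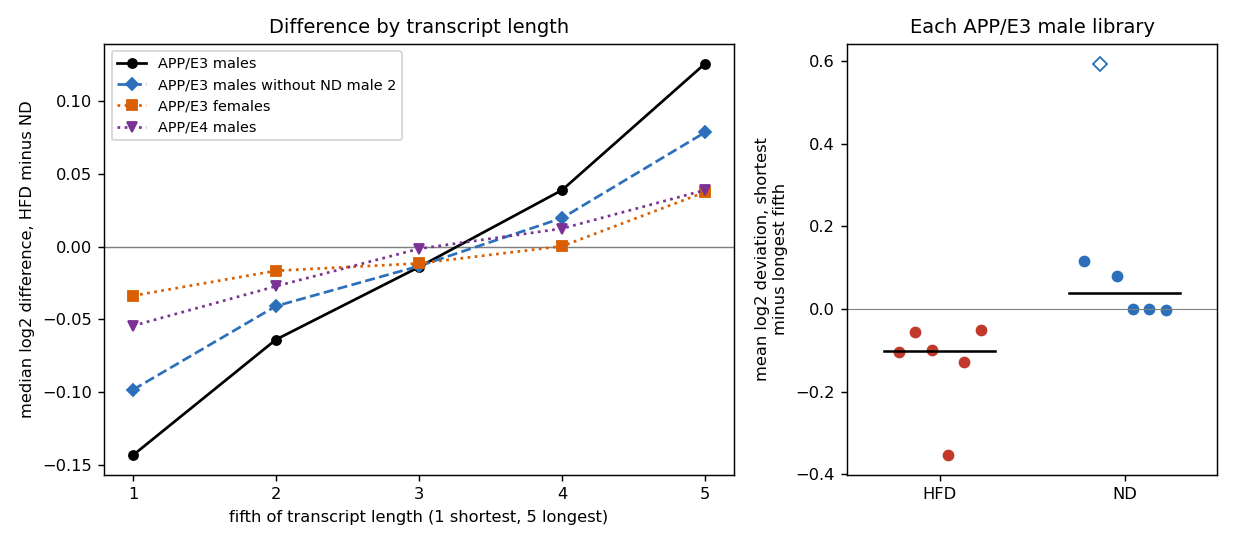
Left, median log2 difference of HFD minus ND in 5 equal groups of genes ordered by transcript length, for APP/E3 males with and without ND male 2, APP/E3 females and APP/E4 males. Right, mean log2 deviation of the shortest minus the longest group in each APP/E3 male library, HFD beside ND (bar, median; open diamond, ND male 2); the male line climbs from -0.14 to 0.13 and the 6 HFD points lie below the 6 ND points.

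The lists that led the comparison differ in transcript length, with a median of 8508 bases for the chromatin regulators, 1106 for the ribosomal protein genes and 1141 for the oxidative phosphorylation genes. When each library's trend of level on length was removed, an alternative added after the data were seen, 1111 genes had an unadjusted p under 0.05 and none passed. The median log2 difference was still 0.05 in the lowest GC group and -0.06 in the highest, against 0.07 and -0.10 before. Values given without the length trend therefore still vary with GC content. The median of the chromatin list was then 0.04 with 32 of 54 higher and 1 of them under 0.05. The median of the ribosomal list was -0.09 with 56 of 75 lower and 5 under 0.05, and that of the oxidative phosphorylation list -0.02 with 41 of 69 lower, and 11 lower and 2 higher genes under 0.05. Dcun1d3 then differed by 0.27, Zzz3 by 0.14, Rplp1 by -0.14 and Uqcrq by -0.26. In these 4 genes the direction was the same, whereas Gria2, described below, differed by 0.01 there. What made length move with diet group was not tested. The list differences in APP/E3 females and APP/E4 males were not computed without the length trend.

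Genes of synapses and neurons showed small differences. Of 34 glutamate and GABA receptor genes, 25 were higher and 9 lower (median 0.10). An unadjusted p under 0.05 was found for 3, all higher, against 6.21% of all genes. There were 5 without ND male 5, 7 without ND male 6 and 0 without the length trend, where the median was 0.06. Gria2, the AMPA receptor subunit gene that sets calcium permeability, had 804, 839 and 911 CPM on HFD and 689, 757 and 793 CPM on ND (0.18 ± 0.07, adjusted p = 0.286). Every HFD library was above every ND library. The kainate receptor gene Grik3 (0.32 ± 0.13) and the GABA-A receptor gene Gabrb2 (0.21 ± 0.12) did not overlap either. Sst, the neuropeptide gene of a class of interneurons, had 93.4, 108 and 130.03 CPM on HFD and 119, 138 and 187 CPM on ND (-0.38 ± 0.12, adjusted p = 0.278). Its groups overlapped, and ND male 2 was highest. Mef2a, a transcription factor gene of neurons and other cells that stands on the homeostatic microglia list, had 103, 113 and 115 CPM on HFD and 49.3, 90.1 and 106 CPM on ND (0.40 ± 0.14, adjusted p = 0.278). Its groups overlapped, with the lowest value again from ND male 2.

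Immediate early genes, which neurons switch on within minutes of activity, lay above ND in 29 of 33 genes, and the median was 0.27. Of the 33, 2 were higher with an unadjusted p under 0.05, a share close to the 6.21% over all genes. The count was 0 without HFD male 3, HFD male 6, ND male 5 or ND male 6, 6 without ND male 2 and 8 without HFD male 2. Egr2, a zinc finger transcription factor gene, had 5.83, 21.5 and 31.0 CPM on HFD and 6.12, 10.4 and 16.4 CPM on ND (1.06 ± 0.47, adjusted p = 0.335). HFD male 2 was the lowest of all 12 libraries, and the other 5 HFD libraries were above every ND library. Over the list, HFD male 2 stood at -0.55 on the log2 scale relative to the mean of the 12, whereas the HFD median was 0.24 and the ND median -0.17. Jund had the smallest p on the lower side (-0.35 ± 0.18, adjusted p = 0.397). Medians over this list were 0.12 in APP/E3 females and 0.27 in APP/E4 males.

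Lipid genes, which a fat-rich diet bears on most directly, showed no common direction. Apoe had 15.1, 15.5 and 17.2 CPM on HFD as the lowest, median and highest value, against 18.0, 19.7 and 25.7 CPM on ND (-0.36 ± 0.11, adjusted p = 0.266, 0.137 to 0.830 over the alternative fits). All HFD libraries were below all ND libraries. These reads fall on the mouse gene in animals that carry the human sequence, and how reads of human APOE were assigned is not given in the sources used here. Without the length trend the difference was -0.22. Of 28 lipoprotein and lipid handling genes 11 were higher and 17 lower (median -0.06, but 0.01 without HFD male 2 and -0.02 without the length trend). The lysosomal acid lipase gene Lipa was higher at 20.7, 26.1 and 27.1 CPM on HFD and 18.9, 21.6 and 22.8 CPM on ND (0.23 ± 0.08, adjusted p = 0.285), with HFD males 2 and 3 inside the ND range.

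Among 20 genes of fatty acid synthesis and desaturation, 12 were higher and 8 lower (median 0.02, but -0.05 without ND male 2 and -0.07 without the length trend). Fads1, the delta-5 desaturase gene of polyunsaturated fatty acid synthesis, had 256, 264 and 272 CPM on HFD and 282, 309 and 351 CPM on ND (-0.24 ± 0.08, adjusted p = 0.279). The groups did not overlap, and the difference was -0.24 without ND male 2 and -0.23 without the length trend. Thrsp, a lipogenic regulator gene, differed by -0.48 ± 0.17 and the elongase gene Elovl6 by 0.30 ± 0.12 (adjusted p = 0.279 and 0.304), both with overlap. Of 24 cholesterol synthesis genes 17 were lower and 7 higher (median -0.07, and -0.02 without ND male 2), led by the mevalonate kinase gene Mvk (-0.24 ± 0.10, adjusted p = 0.331) and, on the higher side, the sterol transfer gene Stard4 (0.21 ± 0.15, adjusted p = 0.524).

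Fatty acid oxidation genes were lower in 25 of 32 cases (median -0.07). An unadjusted p under 0.05 was found for 4, all lower, against 7.38% of all genes, and for 2 without HFD male 1. Without the length trend 21 of 32 were lower, the median was -0.04 and no gene was under 0.05. The dehydrogenases of the first step of beta-oxidation were among them. Acadl had 30.3, 32.6 and 36.9 CPM on HFD and 36.5, 38.1 and 49.5 CPM on ND (-0.27 ± 0.09, adjusted p = 0.278), with ND male 3 highest and a narrow overlap. Acadm had 25.6, 29.1 and 30.7 CPM on HFD and 30.8, 31.6 and 36.9 CPM on ND (-0.16 ± 0.05, adjusted p = 0.278), without overlap. Ppargc1a, a coactivator gene of mitochondrial biogenesis, was the member with the smallest p on the higher side (0.22 ± 0.12, adjusted p = 0.430).

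Insulin and IGF signalling genes were higher in 24 of 32 cases (median 0.12). The 6 with an unadjusted p under 0.05 were all higher, against 6.21% of all genes. There were 3 without HFD male 1, 1 without ND male 2 and 10 without ND male 4. Pik3ca, a catalytic subunit gene of PI3 kinase, had 95.4, 100.3 and 103 CPM on HFD and 77.7, 91.0 and 91.8 CPM on ND (0.17 ± 0.08, adjusted p = 0.332). The groups did not overlap, and ND male 2 gave the lowest value. Tsc1, an inhibitor of mTOR complex 1, differed by 0.18 ± 0.07 and Akt1 by -0.11 ± 0.05 (adjusted p = 0.304 and 0.372). The median of this list was 0.01 without the length trend.

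Microglial and immune genes showed small differences. Of 29 plaque-associated microglia genes, 7 were higher and 22 lower (median -0.08, and -0.14 to -0.04 with 1 library left out). Of 21 homeostatic microglia genes 4 were higher and 17 lower (median -0.09, and -0.04 without the length trend). Tyrobp, the adapter of microglial receptors, had 12.3, 15.7 and 18.0 CPM on HFD and 13.7, 17.8 and 22.9 CPM on ND (-0.26 ± 0.15, adjusted p = 0.450). Its partner receptor gene Trem2 had 12.2, 14.5 and 16.5 CPM on HFD and 13.2, 15.9 and 21.3 CPM on ND (-0.17 ± 0.15, adjusted p = 0.640). Both overlapped widely. Lgals3, the galectin-3 gene, was low, at most 1.16 CPM on HFD and 0.499 CPM on ND (0.80 ± 0.34, adjusted p = 0.325). Among 38 interferon-induced genes 29 were higher (median 0.10), none with an unadjusted p under 0.05. That median was 0.19 without ND male 3, 0.05 without ND male 1 and -0.0067 in the 8 libraries low in LOC100503946. Of 19 complement genes 8 were higher and 11 lower (median -0.05, but 0.08 without ND male 3). The median of 19 antigen presentation genes was also -0.05, but 0.01 without HFD male 2 and 0.04 without the length trend.

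Of 22 astrocyte identity genes, 19 were lower on HFD and 3 higher (median -0.13, and -0.12 without the length trend). An unadjusted p under 0.05 was found for 5, all lower, against 7.38% of all genes, and for 3 without ND male 3. Ntsr2, a neurotensin receptor gene expressed by astrocytes, had 61.1, 66.5 and 70.6 CPM on HFD and 72.3, 83.2 and 98.1 CPM on ND (-0.36 ± 0.09, adjusted p = 0.164). Its groups did not overlap, and the difference was -0.32 without ND male 2 and -0.31 without the length trend. In APP/E3 females the gene differed by -0.14 and in APP/E4 males by -0.03. Reactive astrocyte genes had a median of 0.04, which spanned -0.06 (without HFD male 5) to 0.15 (without ND male 3) with 1 library left out and was 0.12 without the length trend. Gfap, the astrocyte filament gene, had 109, 141 and 193 CPM on HFD and 87.8, 118 and 175 CPM on ND (0.21 ± 0.22, adjusted p = 0.697), and Serpina3n differed by 0.02 ± 0.25, each with overlap.

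Genes of amyloid biology were near 0 as lists. The median over 23 genes of APP processing was 0.03 and over 34 Alzheimer risk genes 0.00. With 1 library left out the first spanned 0.01 to 0.04 and the second -0.05 to 0.04. App had 4027, 4385 and 4957 CPM on HFD and 3665, 4120 and 4431 CPM on ND (0.12 ± 0.09, adjusted p = 0.557), and Prnp 2461, 2814 and 3044 CPM on HFD and 2248, 2832 and 4167 CPM on ND (-0.09 ± 0.11, adjusted p = 0.740). Both overlapped, and either can hold reads of the transgenes. Bace1, the beta-secretase gene, had 121, 134 and 143 CPM on HFD and 106, 121 and 130.3 CPM on ND (0.16 ± 0.06, adjusted p = 0.290). Psen2, a gamma-secretase subunit gene, differed by -0.25 ± 0.10 (adjusted p = 0.319). Sorl1, a sorting receptor gene of APP, had 288, 304 and 339.5 CPM on HFD and 106, 251 and 292 CPM on ND (0.43 ± 0.18, adjusted p = 0.318). Without ND male 2, which gave the value of 106 CPM, it differed by 0.27.

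Stress, hormone and clock genes had small medians, 0.04 over 40 chaperone genes, 0.08 over 22 glucocorticoid response genes and 0.05 over 22 clock genes. With 1 library left out they spanned 0.01 to 0.07, 0.03 to 0.15 and 0.02 to 0.09 in that order. Clock, a core activator of the circadian oscillator, had 109.9, 115 and 124 CPM on HFD and 57.1, 99.0 and 108 CPM on ND (0.33 ± 0.11, adjusted p = 0.278), and Hspa4l, an Hsp110-type chaperone gene, 159, 164 and 172 CPM on HFD and 94.4, 141 and 155 CPM on ND (0.29 ± 0.10, adjusted p = 0.285). Neither overlapped, and ND male 2 was lowest for both. The metallothionein genes Mt1 and Mt2, which bind zinc and copper and respond to glucocorticoids, were lower. Mt1 had 86.9, 95.001 and 115 CPM on HFD and 113, 118 and 145 CPM on ND (-0.36 ± 0.10, adjusted p = 0.250), with a narrow overlap. Mt2 had 39.2, 47.9 and 52.7 CPM on HFD and 54.6, 58.0 and 85.1 CPM on ND (-0.41 ± 0.12, adjusted p = 0.266), with none. Klf9, a zinc finger gene induced by glucocorticoids, differed by 0.30 ± 0.11 in the other direction (adjusted p = 0.286).

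Vascular, myelin and migration genes showed no group-wide separation. Of 24 myelin genes 21 were higher and 3 lower (median 0.18), with none under an unadjusted p of 0.05, and the list was higher in 2 of 24 genes in APP/E3 females and 2 of 24 in APP/E4 males (medians -0.16 and -0.13). Without HFD male 4 the male median was 0.11, and with the level of the striatal list as a covariate it was 0.07. Ugt8a, which makes the myelin lipid galactocerebroside, had 42.0, 52.4 and 76.9 CPM on HFD and 27.6, 43.7 and 57.2 CPM on ND (0.38 ± 0.19, adjusted p = 0.384). Of 40 migration and adhesion genes 32 were higher (median 0.10, 0.06 without ND male 2 and 0.01 without the length trend), led by the axon guidance gene Sema5a (0.35 ± 0.15, adjusted p = 0.323) and, on the lower side, the matrix protease gene Mmp2 (-0.55 ± 0.25, adjusted p = 0.348). The medians were -0.04 over 26 endothelial genes and -0.04 over 15 mural cell genes. With 1 library left out the endothelial median spanned -0.10 (without ND male 2) to 0.01 (without ND male 3), and the mural cell median -0.13 (without HFD male 5) to 0.04 (without ND male 3). An unadjusted p under 0.05 was found for 4 endothelial genes, all lower, against 7.38% of all genes. The count was 2 without HFD male 2, HFD male 3, ND male 2 or ND male 3, and 1 without HFD male 4 or ND male 5.

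**Figure D4:**
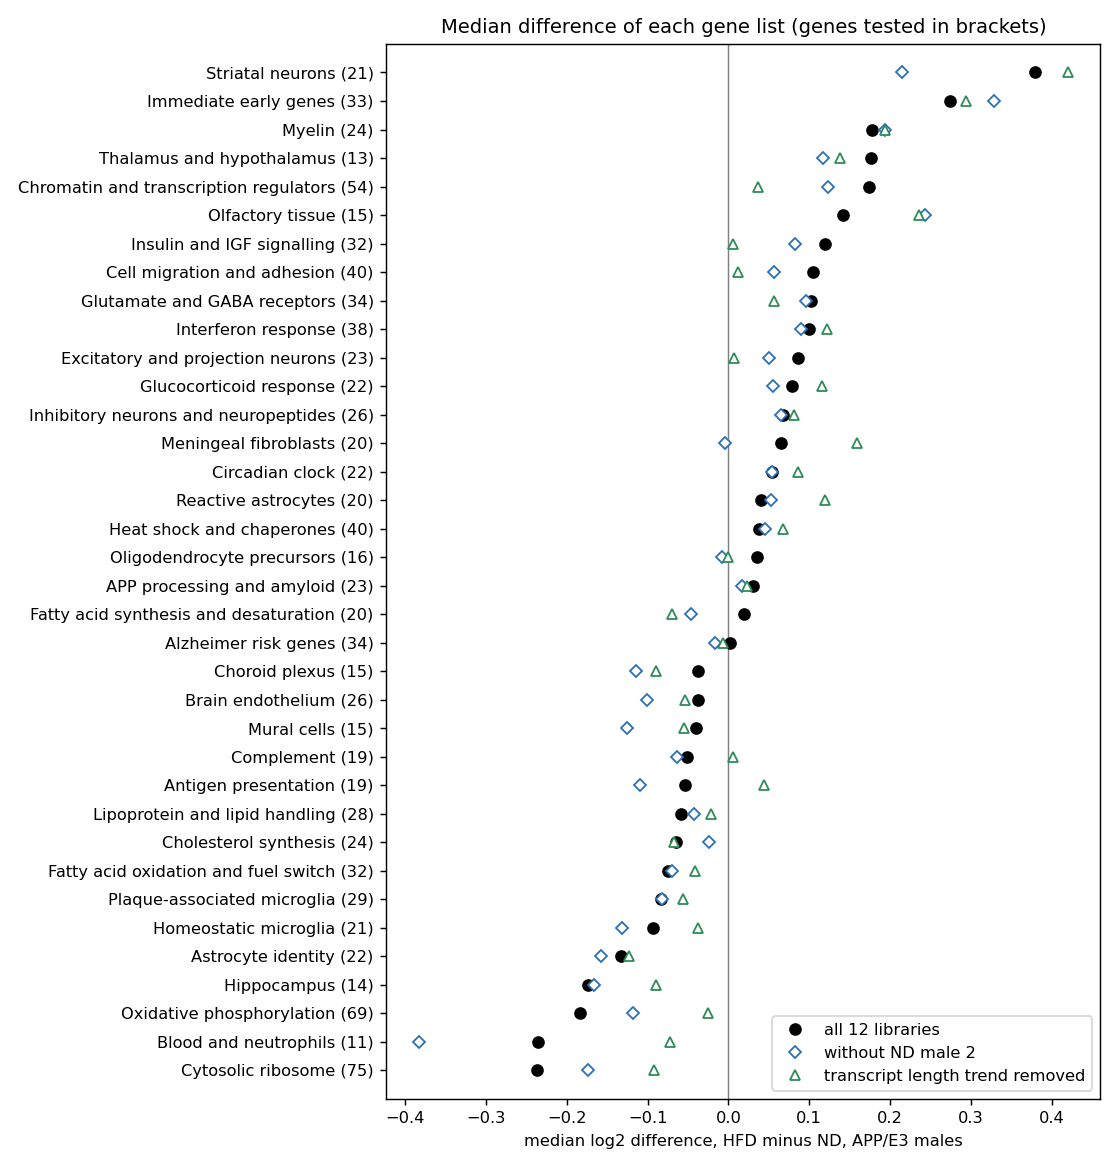
Median log2 difference of HFD minus ND in APP/E3 males (horizontal axis) for 36 gene lists, each with its number of tested genes, over all 12 libraries (filled circles), without ND male 2 (diamonds) and with the transcript length trend of each library removed (triangles). Without the length trend the chromatin list lies at 0.04, insulin and IGF signalling at 0.01 and oxidative phosphorylation at -0.02.

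Most of the lowest p-values on the lower side came from 1 library. Umodl1 (-4.38 ± 0.89, adjusted p = 0.0769), Bpifb4, Cnga2, Sec14l3, Cyp2f2, Gramd1c, Ebf2, Ugt2a1 and Cyp2a5 are 9 of the 10 genes with the smallest p in that direction. Cnga2 encodes a subunit of the channel of olfactory sensory neurons, and Cyp2a5, Cyp2f2 and Ugt2a1 encode detoxifying enzymes of the nasal epithelium. Umodl1 had 0.106, 0.261 and 2.20 CPM on HFD and 0.116, 0.744 and 72.6 CPM on ND. Cyp2a5 had 0.318, 1.01 and 8.79 CPM on HFD and 0.200, 1.06 and 371 CPM on ND. The highest value of each of these 9 genes was that of ND male 3, whereas no group median of these genes was above 1.48 CPM, and 3 counts stand for between 0.0762 and 0.4999 CPM in these libraries. Omp, the olfactory marker protein gene, reached 277 CPM in ND male 3 and 52.1 CPM in ND male 5, and at most 31.0 CPM on HFD.

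**Figure D5:**
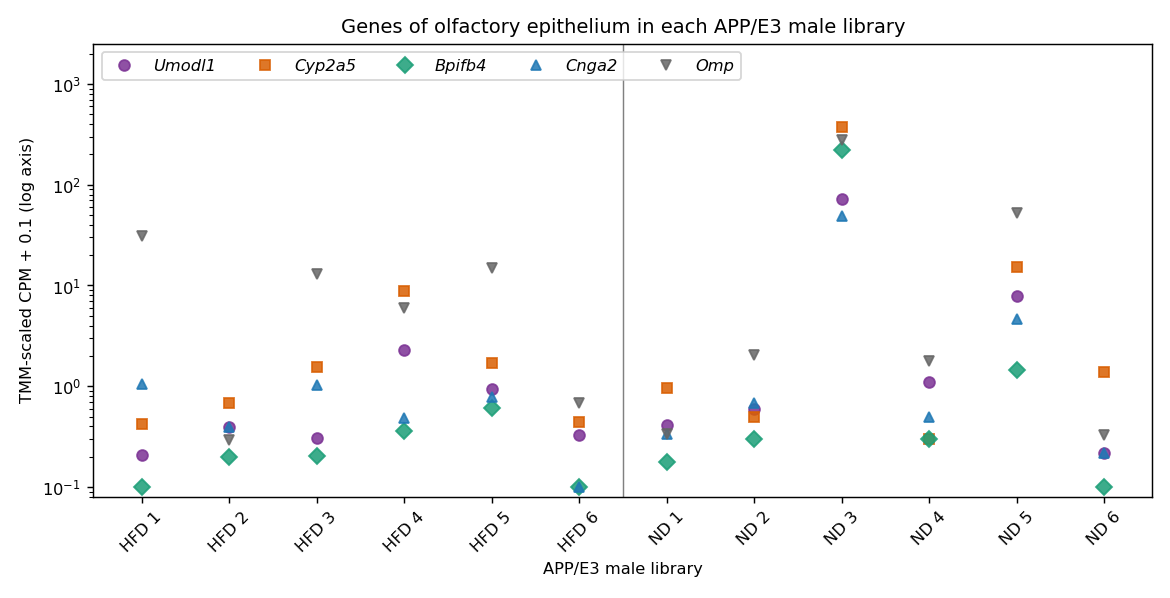
Level of Umodl1, Cyp2a5, Bpifb4, Cnga2 and Omp (TMM-scaled CPM plus 0.1, log axis) in each APP/E3 male library, HFD left of ND. All 5 are highest in ND male 3, where Cyp2a5 reaches 371 CPM and Omp 277 CPM.

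The summed level of 13 olfactory epithelium genes, picked after the values were seen, was 3.59 to 51.8 CPM on HFD and 4.18 to 1619 CPM on ND, with 1619 CPM in ND male 3 and 146 CPM in ND male 5. Without ND male 3 their median log2 difference was -0.89 in place of -4.05, and 1 in place of 11 had an unadjusted p under 0.05.

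Marker genes of tissue next to the cortex varied widely between libraries. All 21 striatal genes tested were higher on HFD with a median of 0.38, and none had an unadjusted p under 0.05. The median was 0.20 without ND male 4, 0.21 without ND male 2 and 0.67 without ND male 6, and in APP/E4 males 0 of the 21 were higher (median -0.53). Their summed level was 1647.8 to 4041 CPM on HFD and 759 to 4324 CPM on ND. Drd2, the dopamine receptor gene of striatal projection neurons, had 10.6, 37.9 and 49.4 CPM on HFD and 1.60, 24.9 and 54.6 CPM on ND, with ND males 2 and 4 lowest. With the level of the striatal list as a covariate no gene passed, and the medians were -0.20 for ribosomal, -0.17 for oxidative phosphorylation and 0.15 for chromatin genes. Olfactory tissue genes had a summed level of 182 to 716 CPM on HFD and 191 to 594 CPM on ND, and 11 of 15 were higher (median 0.14, but -0.07 without HFD male 1). The medians were 0.18 over 13 thalamic and hypothalamic, -0.17 over 14 hippocampal, 0.07 over 20 meningeal and -0.04 over 15 choroid plexus genes. With 1 library left out the thalamic and hypothalamic median spanned -0.0026 (without ND male 6) to 0.37 (without ND male 5), and the hippocampal median -0.22 to -0.11 (without ND male 3). The meningeal median spanned -0.05 (without HFD male 1) to 0.27 (without ND male 3), and the choroid plexus median -0.19 (without ND male 4) to 0.20 (without ND male 3). Blood and neutrophil genes had a median of -0.24, but 0.81 without ND male 1. The part of these tissues in the differences above was not tested beyond the striatal covariate.

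The diet difference in APP/E3 males was then set against that in APP/E3 females and in APP/E4 males by interaction terms, since no library is shared between these comparisons. Neither contrast called a gene with edgeR (0.0% of 15195 each). For sex, 819 genes had an unadjusted p under 0.05 (5.39%), DESeq2 and limma-voom called 0, and edgeR without a filter called 3. Without ND males 1, 2, 4 or 6, edgeR called Bpifb4, 1 of the genes high in ND male 3. For genotype, 702 genes had an unadjusted p under 0.05 (4.62%), and DESeq2, limma-voom and edgeR without a filter called 0. The smallest p for genotype belonged to Slc9b2, a sodium and proton exchanger gene, which differed by -0.32 ± 0.20 in APP/E3 males and by 0.95 ± 0.22 in APP/E4 males (adjusted p of the difference 0.850). Prr13 and Ehmt1, a histone H3 lysine methyltransferase gene, followed. Ehmt1 differed by 0.23 ± 0.07 in APP/E3 males and -0.14 ± 0.07 in APP/E4 males (adjusted p of the difference 0.850). For sex, Bpifb4 (adjusted p = 0.110), Rn18s and Cyp2a5 led. Rn18s, the ribosomal RNA gene, differed by 0.29 ± 0.58 in males, where HFD male 4 reached 5205 CPM and the difference was -0.02 without it, and by -2.74 ± 0.55 in females (adjusted p of the difference between the sexes 0.854). In APP/E3 females alone edgeR called 4 genes (0.0263%), all lower on HFD, which were Rn18s and the globin genes Hba-a1, Hbb-b1 and Hbb-bs (adjusted p = 0.0431 for each).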

How the data were processed

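The authors deposited raw counts, 1 column for each of 52 libraries. The submitters' processing notes name Subread, featureCounts, limma, edgeR 3.14.0 and the genome build mm9. Annotation, strand setting and handling of multiply mapped reads were not given in the sources used, which leaves gene copies and overlapping genes uncertain. The log2 coefficients and p-values that the authors deposited beside the counts, from their own comparison of diets, were not used. All 24 symbols turned into dates were restored by gene ID.

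Counts were tested with edgeR 4.0.16 in R 4.3.3: filterByExpr over 8 groups (15195 of 15692 genes kept), TMM scaling, robust quasi-likelihood fit of 1 mean per group over 52 libraries, Benjamini-Hochberg adjustment over all genes, threshold 0.05. The code was tested on simulated data. Values are TMM-scaled CPM, and log2 CPM used a prior count of 2. DESeq2 1.42.0, limma-voom (limma 3.58.1), other scaling and filters, title style, read class, striatal level, transcript length and each library left out were alternatives. Groups and replicate names follow the labels and the deposit order. Within-group library pairs were not duplicates (chi-square per gene at least 2.95 over 30 pairs). Transcript lengths were those of the longest GENCODE vM21 transcript of a symbol, found for 98.6% of genes, and chromosomes come from a RefSeq gene table for GRCm38.p6. The limit of 3 counts covers counting error only.

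The comparison, the gene lists and the tests were chosen with earlier results of these data known. Named genes are the 10 with the smallest unadjusted p in each direction (no gene was called), the member of each list with the smallest p in each direction, App, Apoe, Prnp, Trem2, Tyrobp, Serpina3n, Gfap, Fyn and Mpeg1, and the 3 with the smallest p of each interaction. Cox6a1, Rplp1, Rps20, Rpl7a, Rps18, Btaf1, Ncoa3, Arid1a, Grik3, Pik3ca, Gabrb2, Fads1, Mt2, Acadm, Omp and Drd2 were added after their values were seen. Some genes that the rule names are not reported here. Errors are standard errors (SE).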

Additional observations from a re-analysis of the deposited data

Results flagged for a closer look

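In 310 groups of 6 libraries, 39 values stood apart from the other 5 of their group by more than Dixon's critical share of the group's range (12.6%), where chance flags about 1 in 20 groups. ND male 2 gave 16 of them, HFD male 4 9, ND male 3 5, HFD male 2 4, ND male 5 2, and HFD males 1 and 6 and ND male 1 1 each. The groups share libraries and many genes move together, so the 39 are not independent.

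HFD male 4 was the lowest HFD library for the ribosomal protein genes Rplp1 (117 CPM), Rps20 (22.9 CPM), Rpl7a (17.1 CPM) and Rps18 (19.8 CPM) and for Cox6a1 (122 CPM). It was also lowest over the cytosolic ribosome list (-0.44 on the log2 scale relative to the 12 libraries), over the oxidative phosphorylation list (-0.39) and for the shortest minus the longest transcripts (-0.35). Nupr1, a stress-induced regulator gene, was lowest there at 0.259 CPM, which is under the 0.384 CPM that 3 counts stand for in that library.

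ND male 2 was the highest ND library for Rplp1 (233 CPM), Rps20 (46.4 CPM), Rps18 (49.4 CPM), Sst (187 CPM) and the NMDA receptor gene Grin2c (45.1 CPM). It was the lowest for Clock (57.1 CPM), Sorl1 (106 CPM), Spty2d1 (22.4 CPM), the matrix gene Tnr (43.4 CPM), Arid1a (107 CPM) and Pik3ca (77.7 CPM). It stood at 0.40 over the oxidative phosphorylation list, at -0.27 over insulin and IGF signalling, at -0.20 over fatty acid synthesis, at -0.21 over Alzheimer risk genes, and at 0.59 for the shortest minus the longest transcripts.

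HFD male 2 was lowest over immediate early genes (-0.55) and for Egr2 (5.83 CPM), Elovl6 (65.1 CPM) and Spty2d1 (28.6 CPM). Mef2a was lowest in HFD male 6 (103 CPM), and the class II antigen gene H2-DMa stood apart in HFD male 1 (7.75 CPM). ND male 3 was highest for Bpifb4 (220.4 CPM), Omp (277 CPM), Acadl (49.5 CPM) and Acadm (36.9 CPM) and over choroid plexus genes (0.91). ND male 1 stood at 1.83 over blood and neutrophil genes. ND male 5 stood at 0.036 over APP processing genes and had 39.4 M counts.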

How the results depend on the processing

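Of 111 named genes, 104 could be fitted under all 26 alternatives, and 95 of these had the same direction in each. The other 7 were low genes that 17 to 20 alternatives kept, and all 7 had the same direction there. An adjusted p under 0.05 was reached by 9 named genes under at least 1 alternative. Of 936 list medians, 12 moved by 1 SD between libraries or more. This SD is that of the list level between libraries of a group, so a median could change sign without moving that far. The reactive astrocyte median did so, at 0.04 over all 12 libraries and -0.06 without HFD male 5. Calls were 6 with DESeq2, 4 without a filter and 0 to 9 with 1 library left out. Genes with an unadjusted p under 0.05 numbered 1227 in titles without a sex letter, 1111 without the length trend and 866 to 2449 with 1 library left out. For diet by sex, 3 were called without a filter and 0 to 1 with 1 library left out, where unadjusted counts were 444 to 1125. For diet by genotype, unadjusted counts were 458 with a title term and 511 to 1094 with 1 library left out.

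Without the length trend, list medians were 0.0069 for excitatory neurons, -0.070 for fatty acid synthesis, 0.0057 for insulin and IGF signalling, -0.025 for oxidative phosphorylation and 0.036 for chromatin regulators. In titles without a sex letter they were 0.022 for lipoprotein genes and -0.0047 for APP processing. Excitatory neurons had 0.039 with the striatal covariate, and blood genes 0.59 in the 8 libraries low in LOC100503946. With 1 library left out, the medians spanned -0.10 to 0.079 for complement, 0.041 to 0.12 for excitatory neurons and -0.47 to 0.81 for blood genes.

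Reversed directions were those of App (-0.028), Mpeg1 (-0.015) and Gal3st1 (0.0063) without the length trend, of Mpeg1 (-0.094) and Prnp (0.0028) in titles without a sex letter, and of Bmp4 (0.028), Gal3st1 (0.077) and Serpina3n (-0.15) in the 8 libraries low in LOC100503946. With the striatal covariate Drd2 was at -0.028, and over the 12 libraries alone with it Drd2 was at -0.016 and Prnp at 0.043. With 1 library left out, Fyn spanned -0.011 to 0.17, Mpeg1 -0.079 to 0.12, Prnp -0.17 to 0.021, Serpina3n -0.059 to 0.14 and Rn18s -0.022 to 0.41. The cause was not tested. No paired analysis was run, since the labels give no pairing of HFD with ND animals. Low genes are limited by depth.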

Other observations

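Gene groups picked after the values were seen add to the lists above, and none of their members passed the test. Over all genes 6.21% were higher and 7.38% lower with an unadjusted p under 0.05. All 13 mitochondrially encoded genes, which encode respiratory chain and ATP synthase subunits, were lower on HFD, 7 of them with an unadjusted p under 0.05 (median -0.30). No transcript length was matched to these genes, so the length trend was not removed from them. They took 2.72% to 3.81% of counts on HFD and 3.53% to 4.73% on ND, with medians of 3.41% on HFD and 4.197% on ND. The median was 0.04 in APP/E3 females and 0.10 in APP/E4 males. Of 76 mitochondrial ribosome genes 66 were lower (median -0.15, and -0.03 without the length trend), 19 with an unadjusted p under 0.05, 4 without ND male 2 and 10 without HFD male 4.

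Metallothioneins Mt1, Mt2 and Mt3 were all lower, with a summed level of 243 to 319.7 CPM on HFD and 326 to 429.7 CPM on ND (median log2 difference -0.36, and -0.20 without the length trend). Of 43 karyopherin and nucleoporin genes, which carry cargo through the nuclear pore, 38 were higher on HFD (median 0.10, and 0.04 without the length trend), 12 with an unadjusted p under 0.05 and 6 without ND male 2. All 8 cullin genes, the scaffolds that Nedd8 modifies, were higher (median 0.09, and 0.06 without the length trend), 3 with an unadjusted p under 0.05 and 1 without ND male 2.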
